A study of Homo sapiens with 21 samples.

Results

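Described here are 10 human genes of glycolysis and of the response to low oxygen: SLC2A1, HK2, PFKFB3, ALDOA, PGK1, ENO1, LDHA, PDK1, CA9 and BNIP3. They were taken by symbol from a count table of 58735 genes, and all 10 were among the 16196 genes that passed the filter on low counts. RNA was sequenced from 21 cultures labelled HepG2, an established human line derived from a liver tumour, in 7 groups of 3 that the submitters call biological replicates. Treated cultures received coumarin, a plant-derived fragrance compound, at 0.001, 0.01, 0.1, 1, 10 or 100 µM, and control cultures (0 µM) received the same medium alone. Every group, the controls included, spent the 6 h of exposure in serum-free DMEM. The design asks which transcripts respond to coumarin and at which dose, and no library was made under low oxygen.

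Each library held 27984517 to 43704155 counts, and 5.61% to 6.63% of them were mitochondrial. The libraries carried almost no hepatocyte transcripts: of 24 hepatocyte genes, 22 had at most 21 counts over all 21 libraries, and ALB, APOC3, SERPINA1, FGA and FGB had 0. The 24 genes summed to between 0.0871 and 0.62 CPM (counts scaled to library size) in each library, so the cells are called here by their label only. Levels below are CPM after scaling by the trimmed mean of M-values (TMM), unless FPKM, which also divides by gene length, is named.

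Glycolysis splits glucose into pyruvate, and cells short of oxygen turn that pyruvate into lactate. Hypoxia-inducible factor (HIF) is a pair of proteins, an oxygen-sensitive alpha subunit (HIF1A or EPAS1) and ARNT. In the presence of oxygen, prolyl hydroxylases of the EGLN family mark the alpha subunit, and the VHL ubiquitin ligase has it degraded. When oxygen falls, HIF binds DNA elements with the core ACGTG or GCGTG and raises glucose uptake, glycolysis and pH control genes, and all 10 genes here are known HIF targets. Tumour cells often keep these genes high with oxygen present.

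The promoter stretches that were searched for this core are shown for the 5 genes on which the results below turn. They are the 250 bases before the RefSeq start in GRCh38.p14, printed 5′ to 3′ on the gene's own strand, with each ACGTG or GCGTG, read on either strand, in capitals. On the opposite strand these motifs read CACGT and CACGC. CA9 lies at chr9:35673678-35673927 (plus strand), BNIP3 at chr10:131981924-131982173 (minus), HK2 at chr2:74833877-74834126 (plus), LDHA at chr11:18394313-18394562 (plus) and SLC2A1 at chr1:42958869-42959118 (minus).
CA9: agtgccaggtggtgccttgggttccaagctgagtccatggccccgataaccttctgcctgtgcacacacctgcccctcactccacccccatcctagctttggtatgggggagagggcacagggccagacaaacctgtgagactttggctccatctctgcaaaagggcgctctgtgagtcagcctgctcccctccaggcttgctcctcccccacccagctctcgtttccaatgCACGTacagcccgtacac
BNIP3: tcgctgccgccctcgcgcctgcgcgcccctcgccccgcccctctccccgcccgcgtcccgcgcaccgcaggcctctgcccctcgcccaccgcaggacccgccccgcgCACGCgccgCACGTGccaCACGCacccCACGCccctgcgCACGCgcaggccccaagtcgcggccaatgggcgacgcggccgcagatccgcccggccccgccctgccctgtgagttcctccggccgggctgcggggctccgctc
HK2: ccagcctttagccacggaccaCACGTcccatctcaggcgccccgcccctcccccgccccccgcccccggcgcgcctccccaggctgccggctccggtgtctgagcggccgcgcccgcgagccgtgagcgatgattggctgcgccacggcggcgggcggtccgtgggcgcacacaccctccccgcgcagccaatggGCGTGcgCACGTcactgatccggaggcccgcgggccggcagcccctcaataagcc
LDHA: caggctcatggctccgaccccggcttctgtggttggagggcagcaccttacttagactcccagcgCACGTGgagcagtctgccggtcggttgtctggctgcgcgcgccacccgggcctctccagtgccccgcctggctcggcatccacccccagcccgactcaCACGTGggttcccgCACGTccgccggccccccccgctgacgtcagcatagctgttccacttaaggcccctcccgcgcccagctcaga
SLC2A1: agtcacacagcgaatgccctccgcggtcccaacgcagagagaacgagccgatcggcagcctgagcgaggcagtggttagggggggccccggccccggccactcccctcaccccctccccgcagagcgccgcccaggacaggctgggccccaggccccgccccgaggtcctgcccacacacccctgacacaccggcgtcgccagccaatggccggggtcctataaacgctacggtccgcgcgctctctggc
CA9 had 1 match, whose first printed base lies 18 bases before the start, while BNIP3 had 6, LDHA 5 and HK2 3. A CACGTG, which holds ACGTG on both strands and counts as 2 matches, occurred at 1 place in BNIP3 and at 2 in LDHA. SLC2A1 had no match in its window, nor did PDK1. At least 1 match was present in 8 of the 10 genes (80%), against 43.2% of 35116 promoters of the same length. For each of the 10 genes only the first listed RefSeq promoter was searched. The 35116 promoters were all those listed and were not limited to tested genes. ACGTG was in 60% of the 10 genes and 18.5% of all promoters, and GCGTG in 50% and 32.2%. The promoters were not matched for G and C content, and both motifs hold CG. That content was 69.6% to 81.6% in SLC2A1, HK2, PFKFB3, PGK1, ENO1, LDHA and BNIP3. In ALDOA, CA9 and PDK1 it was 57.6%, 60.4% and 35.6%. Its part in these shares was not tested. GCGTG is also the core read by the aryl hydrocarbon receptor, and CACGTG is the E-box of MYC and related factors. A match describes these letters and not a bound site, and no match says only that the letters are not in this window.

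Per gene length, ENO1, LDHA and PGK1 were by far the most abundant of the 10. ENO1, the enolase that makes phosphoenolpyruvate (chromosome 1, 8861000 to 8879250, minus strand), averaged 823 ± 41.6 FPKM (SD, n = 21 libraries). LDHA, which turns pyruvate into lactate (chromosome 11, 18394388 to 18408425), averaged 329 ± 14.2 FPKM. PGK1, the first ATP-making enzyme of the pathway (chromosome X, 77910739 to 78129296), averaged 149 ± 6.99 FPKM. The ranges of these 3 genes over the libraries did not touch each other or that of any other gene of the 10.

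The genes of glucose entry were lower. SLC2A1, the glucose transporter GLUT1 (chromosome 1, 42925375 to 42959176, minus strand), averaged 25.4 ± 2.47 FPKM, with a range above that of every gene named next. HK2, the hexokinase that traps glucose as its phosphate (chromosome 2, 74833981 to 74893359), averaged 14.8 ± 1.03 FPKM. BNIP3, a mitochondrial protein that drives removal of mitochondria (chromosome 10, 131966455 to 131982013, minus strand), averaged 11.03 ± 1.55 FPKM and overlapped both HK2 above it and PFKFB3 below it. PFKFB3, which makes the allosteric activator of phosphofructokinase (chromosome 10, 6144934 to 6254644), averaged 9.22 ± 0.308 FPKM.

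The lowest 3 genes could not be ordered, since their ranges overlapped. CA9, a carbonic anhydrase of the cell surface that acidifies the outside of the cell (chromosome 9, 35673856 to 35681159), averaged 2.72 ± 1.58 FPKM. ALDOA, the muscle-type aldolase (chromosome 16, 30064164 to 30070457), averaged 2.65 ± 0.353 FPKM. PDK1, the kinase that switches off pyruvate dehydrogenase (chromosome 2, 172555373 to 172608669), averaged 2.45 ± 0.208 FPKM. Coordinates here are those of the deposited tables (GRCh38).

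Most of the 10 were the most abundant member of their gene family. LDHA stood above LDHB (37.1 ± 2.7 FPKM), ENO1 above ENO3 (47.0 ± 1.9) and ENO2 (7.78 ± 0.873), and PFKFB3 above PFKFB2 (2.89 ± 0.186) and PFKFB4 (1.68 ± 0.619). HK1 (17.7 ± 1.02 FPKM) was above HK2, with overlapping ranges, and SLC2A3, the high-affinity transporter GLUT3, was close to SLC2A1 at 20.2 ± 2.5 FPKM. SLC2A2, the liver-type transporter GLUT2, had 0 counts in all 21 libraries. ALDOA, in contrast to its usual place as a high-level glycolytic gene, was below ALDOC (12.3 ± 1.06 FPKM) and far below GAPDH (1405 ± 56.1 FPKM).

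**Figure D1:**
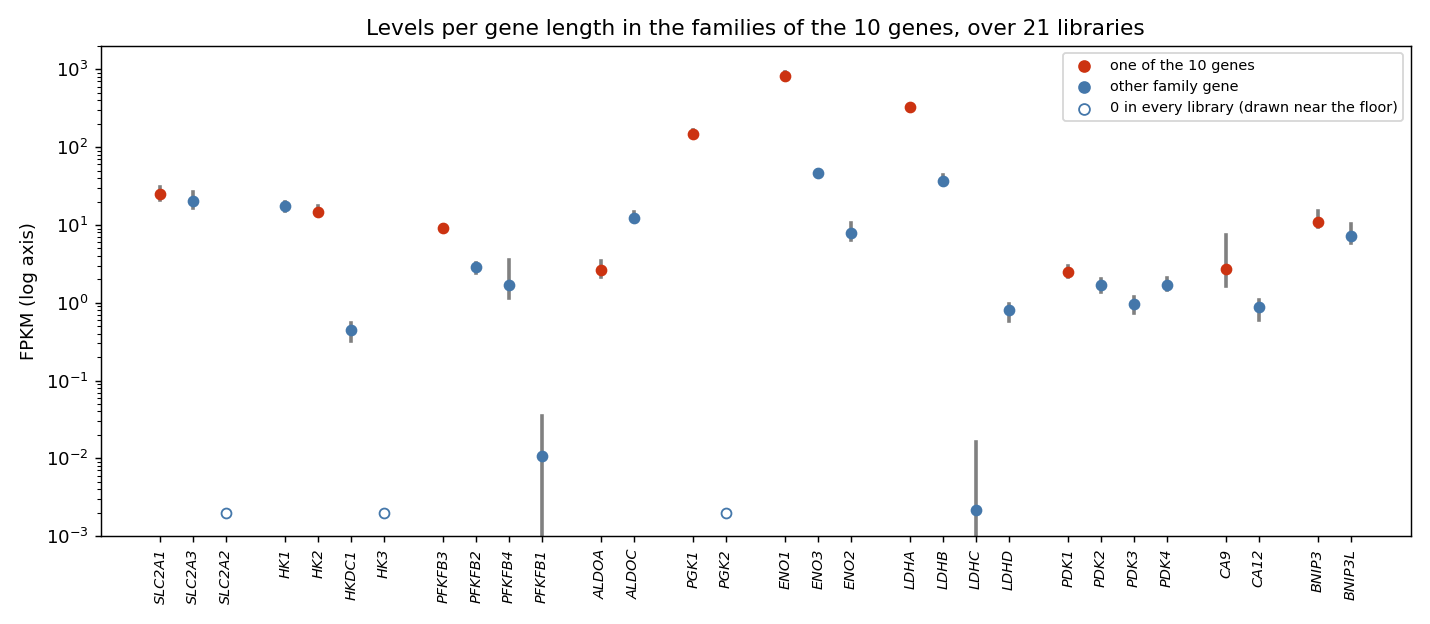
FPKM on a log axis for the 10 genes (red) and other genes of their families (blue), with the mean of 21 libraries as a point and the lowest to highest library as a grey line; open points are genes at 0 in every library. ENO1 at 823 FPKM and LDHA at 329 FPKM are the highest shown, and ALDOA at 2.65 FPKM lies below ALDOC at 12.3 FPKM.

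The ALDOA and CA9 counts are uncertain, because other annotated genes cover part of their exons and whether the authors counted by strand is not given in the sources used here. For ALDOA, 42.3% of the exon bases are shared with AC093512.2 on the same strand, a gene that itself held 1694 counts over all libraries against 7380 for ALDOA. For CA9, 38.5% of the exon bases are overlapped from the other strand by ARHGEF39, with 12418 counts against 3219 for CA9. ARHGEF39 stayed between 15.2 and 19.1 CPM over the 21 libraries, a range of 1.26 times, while CA9 spanned 4.41 times. AC093512.2 ran from 1.85 to 2.79 CPM, a range of 1.51 times, and ALDOA spanned 1.605 times. Annotated pseudogene copies of the 10 genes held at most 0.971% of the parent's counts, reached by BNIP3P11 for BNIP3.

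Before any comparison, 3 libraries have to be named that held more hypoxia transcripts than the replicates beside them. They are replicate 3 at 1 µM, at 10 µM and at 100 µM. The pattern was noticed in these data and is given as a description, with no test, and its cause was not tested. Their depth was within the range of the others (31151057, 37476080 and 33871955 counts), as was their mitochondrial share (5.77%, 6.06% and 5.95%).

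CA9 shows these libraries most clearly. Its counts over replicates 1, 2 and 3 were 103, 80 and 102 at 0 µM, 152, 110 and 135 at 0.001 µM, 91, 125 and 128 at 0.01 µM and 155, 131 and 138 at 0.1 µM. At the upper doses they were 119, 116 and 345 at 1 µM, 176, 144 and 442 at 10 µM, and 82, 109 and 236 at 100 µM. As a ratio to the control mean, CA9 reached 3.85 in replicate 3 at 1 µM, 4.145 at 10 µM and 2.38 at 100 µM. The other 18 libraries held 80 to 176 counts, so each of the 3 lay outside them. Replicates 1 and 2 at 10 µM, with ratios of 1.79 and 1.70, were also above all 3 controls.

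BNIP3 followed the same libraries. In replicates 1, 2 and 3 it had 52.9, 48.6 and 48.9 CPM at 0 µM, and it ranged over 49.3 to 59.3 CPM at 0.001, 0.01 and 0.1 µM. It had 56.6, 54.7 and 76.7 CPM at 1 µM, 61.1, 60.1 and 79.0 CPM at 10 µM, and 53.8, 52.4 and 63.3 CPM at 100 µM. Replicate 3 was the highest library of its dose at 1, 10 and 100 µM.

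SLC2A1 also had replicate 3 as the highest library of these doses. In replicates 1, 2 and 3 it had 107, 101 and 109 CPM at 0 µM, 117, 108 and 142 CPM at 1 µM, 128.5, 126 and 138 CPM at 10 µM, and 109, 97.9 and 127 CPM at 100 µM. At 10 µM all 3 libraries were above all 3 controls, and 100 µM held both the lowest and the fourth highest of the 21 libraries.

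Counted over the genes, replicate 3 at 1 µM and at 10 µM were the 2 highest of the 21 libraries for 5 of the 10 genes (50%): SLC2A1, HK2, PGK1, CA9 and BNIP3. The same held for 23 of 42 tested hypoxia target genes (54.8%), a list that also holds CA9 and BNIP3, both among the 23. It held for 126 of all 16196 tested genes (0.778%). In replicate 3 at 1 µM, 10 of the 10 genes were above all 3 control libraries, against 26.8% of all tested genes. In replicate 3 at 10 µM it was 9 of 10, against 25% of all tested genes, and in replicate 3 at 100 µM it was 6 of 10, against 28.7%. Replicates 1 and 2 at 10 µM had 8 and 7 of 10, against 25.7% and 28.3%. Replicate 1 at 0.001 µM and at 0.1 µM had 6 of 10 each, against 21.9% and 30.5%. By this count replicate 3 at 100 µM was not set apart from libraries that were not named. PFKFB3 was the gene below the controls in replicate 3 at 10 µM (53.4 CPM, controls 54.9 to 55.3 CPM).

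Other hypoxia targets had the same libraries on top. PFKFB4, a further kinase that makes the phosphofructokinase activator, had 17.8 and 21.0 CPM in replicate 3 at 1 and 10 µM, against 6.78 to 8.16 CPM in the controls. EGLN3, the prolyl hydroxylase most strongly induced by HIF, had 18.2 and 18.3 CPM there, against 8.72 to 9.20 CPM in the controls. BNIP3L, the paralogue of BNIP3, had 42.7 and 42.4 CPM, against 26.5 to 27.7 CPM in the controls. In replicate 3 at 1, 10 and 100 µM, 36, 36 and 31 of the 42 targets were above all 3 controls, and in the other 15 treated libraries the number was 5 to 32, the highest in replicate 1 at 10 µM. Replicates also differed at the lower doses. In replicates 1, 2 and 3 the number was 25, 5 and 22 at 0.001 µM, 9, 10 and 24 at 0.01 µM, and 24, 10 and 26 at 0.1 µM.

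**Figure D2:**
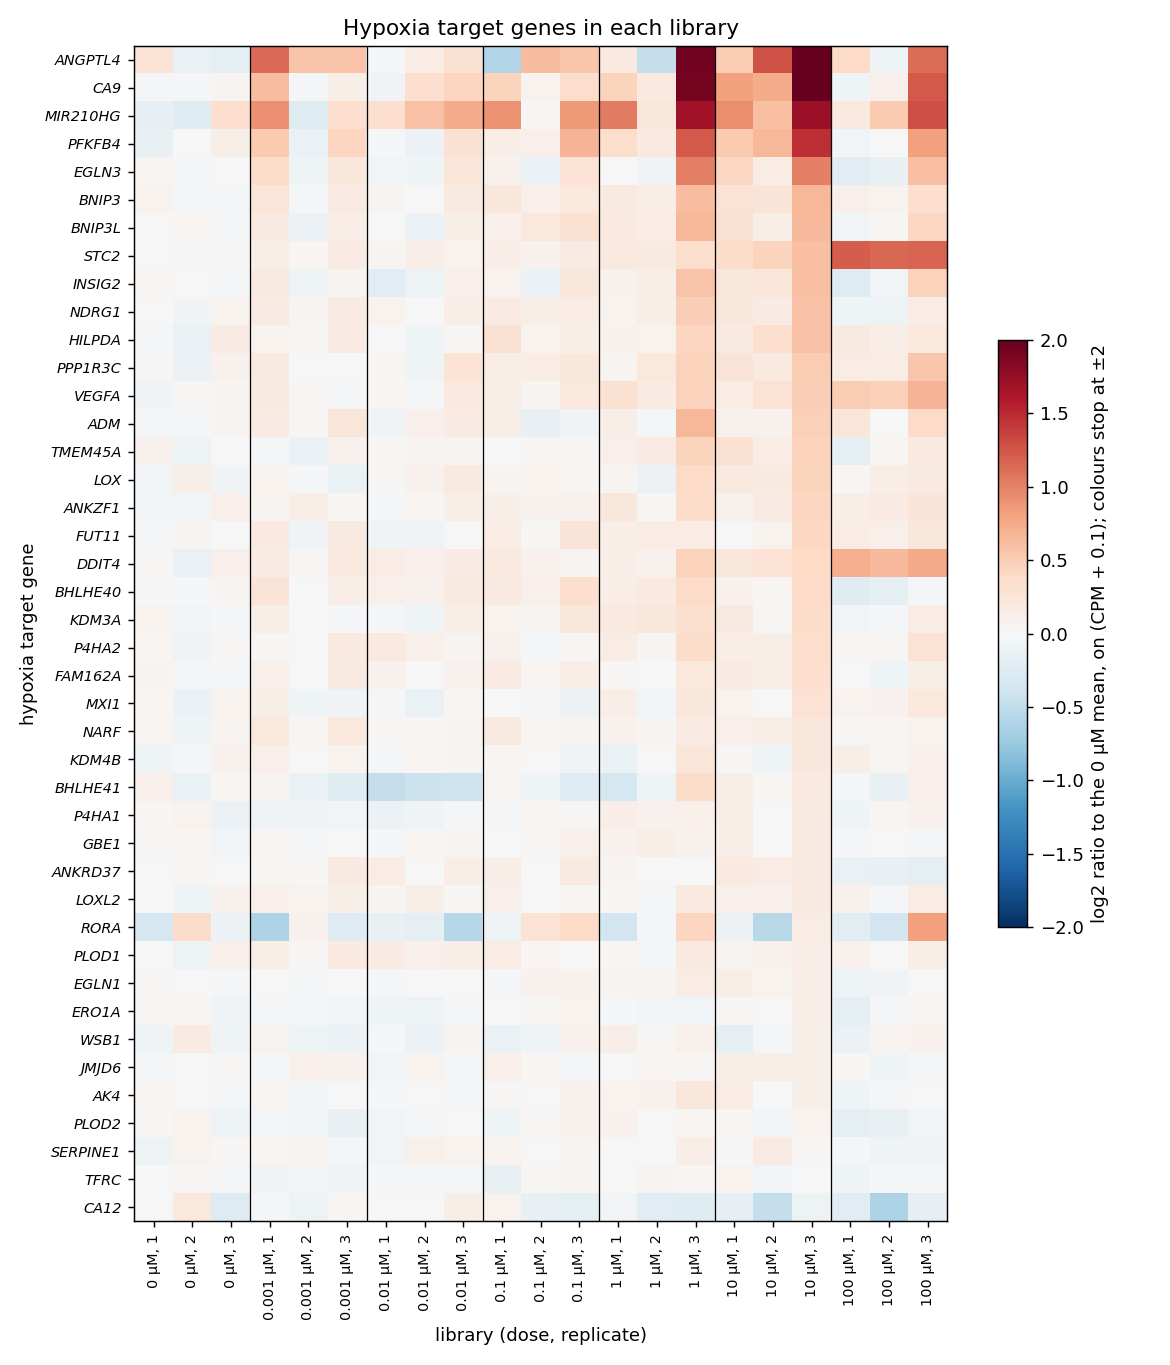
Each row is 1 of 42 tested hypoxia target genes and each column 1 of 21 libraries (dose, replicate); colour is the log2 ratio of CPM + 0.1 to the mean of the 3 controls, and rows are sorted by replicate 3 at 10 µM. Replicate 3 at 1 and at 10 µM are red over most rows, replicate 3 at 100 µM is above all 3 controls in 31 rows, and STC2, DDIT4 and VEGFA are red in all 3 libraries at 100 µM.

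Against 0 µM, none of the 10 genes passed the test at any dose. The test was edgeR's quasi-likelihood test over all 21 libraries, called at a Benjamini-Hochberg adjusted p under 0.05 over 16196 genes, and the 6 comparisons share the same 3 controls. At 0.001, 0.01, 0.1 and 1 µM the share of all tested genes called was 0%, 0.00617%, 0.00617% and 0%, so 0 of 10 is close to the background there. At 10 µM it was 0.327% and at 100 µM 8.47% (3.66% higher and 4.8% lower). At an unadjusted p under 0.05 the counts over the 10 genes were 1, 0, 0, 4, 7 and 3 for the 6 rising doses, against 8.42%, 8.81%, 6.27%, 3.91%, 12.2% and 23.2% of all tested genes. DESeq2 called 0 of the 10 at the 4 lower doses, HK2 at 10 µM and ALDOA at 100 µM, and limma on log2 FPKM called 0 at every dose. In bulk RNA, fewer cells that make a transcript and less of it per cell cannot be told apart.

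**Figure D3:**
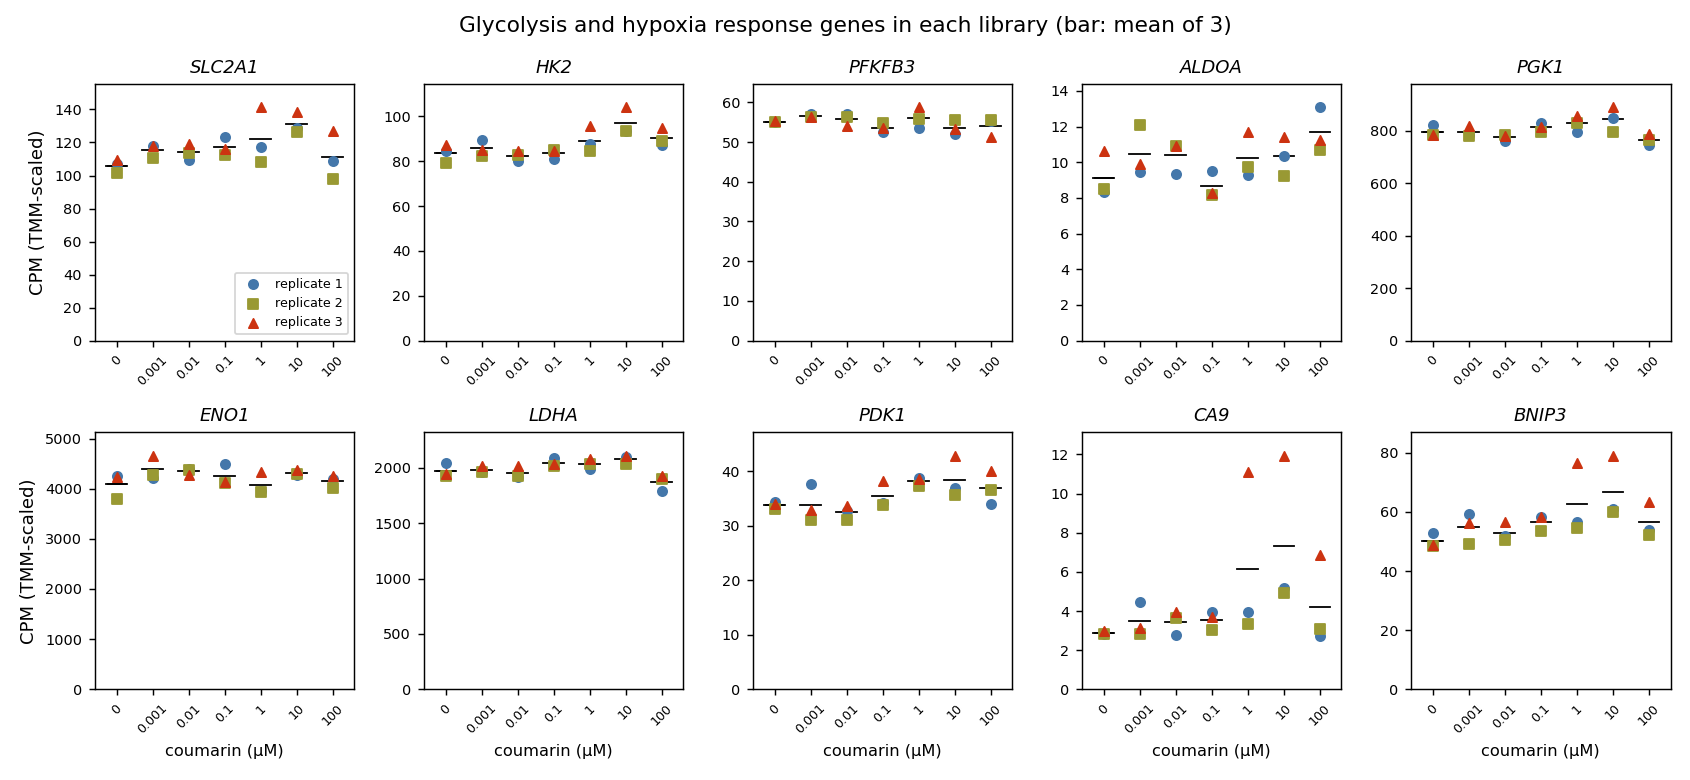
TMM-scaled CPM (linear axes from 0) of the 10 genes in each of 21 libraries by coumarin dose in µM, with replicates 1 to 3 as circles, squares and triangles and the mean of 3 as a bar. CA9 and BNIP3 are set apart by replicate 3 at 1, 10 and 100 µM, and HK2 and SLC2A1 are above all controls in all 3 libraries at 10 µM.

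At 1 µM the 4 genes were SLC2A1, PDK1, CA9 and BNIP3. CA9 differed there from 0 µM by 1.08 on the log2 scale (SE 0.37) and BNIP3 by 0.32 (SE 0.10), and the edgeR adjusted p was 1.00 for each of the 4. The CA9 and BNIP3 values rest on replicate 3 at 1 µM: without it the log2 difference was 0.33 for CA9 and 0.15 for BNIP3. SLC2A1 differed by 0.21 with that library and by 0.09 without it.

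At 10 µM several of the 10 genes stood above the controls without passing the test. All 3 libraries lay above all 3 controls for 6 of the 10 genes (SLC2A1, HK2, ENO1, PDK1, CA9 and BNIP3), against 8.78% of all tested genes. The median log2 difference over the 10 genes was 0.18, against -0.003 over all tested genes, while 7 of the 10 had an unadjusted p under 0.05, as given above. Since the genes were chosen with results of these data known, these counts are a description.

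CA9 averaged 7.34 ± 3.99 CPM at 10 µM and 2.88 ± 0.108 CPM at 0 µM (SD, n = 3 each), a log2 difference of 1.37 (SE 0.36, edgeR adjusted p = 0.0855). BNIP3 averaged 66.7 ± 10.7 CPM at 10 µM and 50.1 ± 2.39 CPM at 0 µM, with a log2 difference of 0.42 (SE 0.10, edgeR adjusted p = 0.0709). SLC2A1 averaged 131 ± 6.5 CPM at 10 µM and 106 ± 4.14 CPM at 0 µM, with a log2 difference of 0.31 (SE 0.07, edgeR adjusted p = 0.0709). HK2 averaged 97.0 ± 6.26 CPM at 10 µM and 83.8 ± 4.16 CPM at 0 µM, with a log2 difference of 0.21 (SE 0.05, edgeR adjusted p = 0.0700). Leaving out replicate 3 at 1 µM brought all 4 past the threshold. Leaving out replicate 1 at 0.1 µM gave SLC2A1, HK2 and BNIP3, and leaving out replicate 2 at 1 µM, or replicate 2 or 3 at 100 µM, gave SLC2A1. A fit of the 6 compared libraries gave SLC2A1, CA9 and BNIP3. Without replicate 3 at 1, 10 and 100 µM together, an alternative chosen after seeing the data, the edgeR log2 difference was 0.81 for CA9 (adjusted p = 0.0686), 0.27 for SLC2A1 (0.0552) and 0.27 for BNIP3 (0.132). HK2 then differed by 0.15 (edgeR adjusted p = 0.283).

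The other 6 genes had smaller differences at 10 µM. PDK1 had a log2 difference of 0.19 (SE 0.07, edgeR adjusted p = 0.267), with 35.6, 36.8 and 42.8 CPM at 10 µM and 33.2, 34.0 and 34.3 CPM at 0 µM. The glycolytic enzymes PGK1, LDHA and ENO1 were within 0.09 of the controls on the log2 scale. ALDOA differed by 0.18 with a standard error of 0.11, and PFKFB3 by -0.04 with a standard error of 0.04.

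At 100 µM, where 8.47% of all tested genes were called, the median log2 difference over the 10 genes was 0.09, against 0.002 over all tested genes. All 3 libraries lay above all 3 controls for 1 of the 10 genes, ALDOA, against 13.1% of all tested genes. ALDOA counts were 397, 375 and 387 at 100 µM and 302, 242 and 361 at 0 µM. As CPM these were 13.1, 10.7 and 11.3 at 100 µM and 8.32, 8.47 and 10.6 at 0 µM, a log2 difference of 0.35 (SE 0.11, edgeR adjusted p = 0.0538). ALDOA passed with DESeq2, and when replicate 3 at 0 µM, 2 at 0.001 µM, 1 at 0.1 µM, 3 at 1 µM or 2 at 100 µM was left out. The overlap with AC093512.2 described above applies to it. That gene had 2.31, 2.47 and 2.62 CPM at 100 µM and 1.90, 2.14 and 1.91 CPM at 0 µM. All 3 of its libraries at 100 µM were thus also above all 3 controls. How far shared reads enter the ALDOA difference was not tested.

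CA9 at 100 µM differed from 0 µM by a log2 value of 0.56 (SE 0.39, edgeR adjusted p = 0.410), and without the 3 libraries named above by 0.01 (edgeR adjusted p = 0.981). BNIP3 differed by 0.17 (SE 0.10) with all libraries and by 0.08 without those 3. SLC2A1 differed by 0.07 with all libraries and by -0.04 without them. At 100 µM the summed level of 10 genes of biliary and simple epithelia was 4060 to 4210 CPM, against 4300 to 4570 CPM at 0 µM. That sum is almost wholly KRT8, KRT7 and KRT18 (1704667, 889000 and 658375 counts over 21 libraries). The next highest, MUC1, had 2272 counts, KRT19 had 1, and EPCAM had 0 in all libraries. Of the 7 tested genes, 1 was called at 100 µM, against 8.47% of all tested genes. It was KRT18, which was lower (log2 -0.20, edgeR adjusted p = 0.00066). The summed level of 12 mesenchymal genes was 1710 to 1780 CPM at 100 µM, against 1750 to 1820 CPM at 0 µM. Of the 10 tested mesenchymal genes, 3 were called lower at 100 µM and 0 higher. Both sums were scaled to library size without TMM. The part of these epithelial and mesenchymal genes in the results was not tested.

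Over the 7 dose groups together HK2 was the 1 gene of the 10 that changed (edgeR F-test, adjusted p = 0.0261), against 4.35% of all tested genes. Its CPM in replicates 1, 2 and 3 were 84.8, 79.3 and 87.4 at 0 µM, 89.5, 82.4 and 85.2 at 0.001 µM, 80.2, 82.7 and 84.6 at 0.01 µM and 80.8, 85.0 and 84.7 at 0.1 µM. They were 87.6, 84.4 and 95.5 at 1 µM, 93.4, 93.3 and 104 at 10 µM, and 87.4, 89.1 and 94.8 at 100 µM. The 4 groups up to 0.1 µM overlapped one another, the 3 libraries at 10 µM were above all of them, and those at 1 and 100 µM overlapped both. The group means spanned 0.23 on the log2 scale. The call was lost when replicate 1 at 0.01 µM, 3 at 10 µM or 3 at 100 µM was left out (edgeR adjusted p up to 0.160), and with limma on FPKM. When replicate 3 was left out at 1, 10 and 100 µM together, HK2 was not called (edgeR adjusted p = 0.282), and SLC2A1 was (edgeR adjusted p = 0.0335). Those libraries were named after SLC2A1 was seen to be high in them, so that SLC2A1 call is a description only. Other settings called more of the 10: HK2, LDHA and PDK1 with DESeq2, and 7 genes without the low-count filter. Over all genes there were 1519 calls without that filter and 705 with it. Leaving out replicate 2 or 3 at 1 µM gave SLC2A1, HK2, CA9 and BNIP3. HK2 was joined by LDHA without replicate 1 at 0 µM, by PDK1 without replicate 1 at 0.001 µM and by PGK1 without replicate 2 at 10 µM, and SLC2A1 and CA9 were called without replicate 3 at 100 µM.

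Of all tested genes, those whose 7 group means ran most like HK2 were GAS1, a growth-arrest protein of the cell surface, MAZ, a zinc-finger transcription factor, and AL355574.1. GAS1, MAZ and AL355574.1 averaged 54.9, 92.3 and 1.12 CPM, so the last was measured from far fewer counts. Their root mean square difference from HK2, over 7 centred log2 means, was 0.028, 0.029 and 0.030.

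Over the 6 treated groups, HK2 and PDK1 had a rising fitted slope over the logarithm of the dose, 2 of the 10 genes. The share of all tested genes was 4.45% (1.94% higher and 2.51% lower). The HK2 slope was 0.034 on the log2 scale per 10-fold step in dose (SE 0.0086, edgeR adjusted p = 0.0184). That of PDK1 was 0.042 per step (SE 0.012, edgeR adjusted p = 0.0357). A slope averages over the groups, and neither gene rose at every step. From 10 to 100 µM the mean went from 97.0 to 90.4 CPM for HK2 and from 38.4 to 36.8 CPM for PDK1. PDK1 CPM in replicates 1, 2 and 3 were 34.3, 33.2 and 34.0 in the controls, which the slope leaves out, then 37.6, 31.0 and 32.9 at 0.001 µM, 32.7, 31.0 and 33.7 at 0.01 µM and 34.1, 33.8 and 38.2 at 0.1 µM. They were 38.7, 37.3 and 38.5 at 1 µM, 36.8, 35.6 and 42.8 at 10 µM, and 34.0, 36.5 and 40.1 at 100 µM. The groups at 0.001, 0.01, 0.1 and 100 µM overlapped the controls, and those at 1 and 10 µM lay above them. HK2 lost the call without replicate 2 at 0.001 µM or replicate 3 at 100 µM, and PDK1 kept it in 14 of 21 fits that left out 1 library. The libraries whose absence ended the PDK1 call were replicates 2 and 3 at 0.001 µM, 1 and 2 at 0.01 µM, 3 at 10 µM, and 2 and 3 at 100 µM. With replicate 3 left out at 1, 10 and 100 µM together, neither was called (HK2 0.023, edgeR adjusted p = 0.176, and PDK1 0.025, adjusted p = 0.338), and limma on FPKM called neither.

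Between the highest doses, LDHA and PGK1 fell at 100 µM relative to 10 µM, 2 of the 10 genes, against 4.57% of all tested genes (2.07% higher and 2.49% lower). LDHA had 1788, 1896 and 1929.7 CPM at 100 µM, against 2102, 2031 and 2111 CPM at 10 µM, with no overlap (log2 difference -0.15, SE 0.03, edgeR adjusted p = 0.0096). PGK1 had 746, 764 and 789.6 CPM at 100 µM, against 849, 795 and 891 CPM at 10 µM, also with no overlap (log2 difference -0.14, SE 0.04, edgeR adjusted p = 0.0327). Against 0 µM neither passed at 100 µM: LDHA differed by -0.08 (edgeR adjusted p = 0.173) and PGK1 by -0.06 (edgeR adjusted p = 0.414). Leaving out replicate 1 or 3 at 10 µM or replicate 1 at 100 µM ended both calls, with adjusted p up to 0.0943 for LDHA and 0.213 for PGK1, and leaving out replicate 2 at 100 µM ended that of PGK1. Limma on FPKM called LDHA and not PGK1.

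SLC2A1, CA9 and BNIP3 had larger differences between 100 and 10 µM that did not pass (log2 -0.24, -0.81 and -0.24, edgeR adjusted p = 0.0660, 0.192 and 0.174). With replicate 3 left out at 1, 10 and 100 µM together, SLC2A1 fell by 0.30 (edgeR adjusted p = 0.0077) and CA9 fell by 0.79 (adjusted p = 0.0358). LDHA and PGK1 then missed the threshold (-0.17, edgeR adjusted p = 0.0683, and -0.12, adjusted p = 0.199). The libraries left out were named after CA9 and SLC2A1 were seen to be high in them. Leaving them out can lower the spread of these genes, so these SLC2A1 and CA9 calls are a description only. The median difference over the 10 genes was -0.12, against 0.001 over all tested genes.

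Most of the glucose and lactate pathway was not called by edgeR against 0 µM, nor was any of the 10 genes. Of 10 tested genes for glucose transport and phosphorylation, SLC2A1 and HK2 among them, 0 were called by edgeR at 10 or 100 µM, against 0.327% and 8.47% of all tested genes. At an unadjusted p under 0.05 there were 4 at 10 µM (SLC2A1, SLC2A3, SLC2A4 and HK2) and 2 at 100 µM, against 12.2% and 23.2% of all tested genes. The lists of glycolytic enzymes and of lactate and pyruvate genes had shares called at 100 µM near or below those 8.47%. Of 21 tested glycolytic enzyme genes, 0 rose and 1 fell at 100 µM: PGAM4, an intronless copy of PGAM1, with 0.198, 0.142 and 0.233 CPM at 100 µM and 0.771, 0.245 and 0.559 CPM at 0 µM. The log2 difference was -1.49 (SE 0.40, edgeR adjusted p = 0.0191), lost without replicate 1 at 0 µM or replicate 1 or 2 at 100 µM. PGAM4 had 315 counts over the 21 libraries, and its reads may belong to PGAM1. Of 21 tested genes for lactate handling and pyruvate entry into mitochondria, 0 rose and 2 fell at 100 µM. PDHX, the component that binds the pyruvate dehydrogenase complex together, had 71.2, 76.6 and 73.8 CPM at 100 µM and 84.25, 83.5 and 82.2 CPM at 0 µM (log2 -0.17, SE 0.04, edgeR adjusted p = 0.0045). PDHB, a subunit of the same complex, fell by 0.12 (edgeR adjusted p = 0.0482), a call kept in 7 of 21 fits that left out 1 library.

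At 100 µM relative to 10 µM, 3 glycolytic enzyme genes fell (PGK1, TPI1 and BPGM) and 4 of the lactate and pyruvate list (LDHA, LDHB, SLC16A3 and PDHB), with 0 rising in either list of 21, against 4.57% of all tested genes (2.07% higher and 2.49% lower). PGK1 and LDHA are those reported above. TPI1, triosephosphate isomerase, fell by 0.13 (edgeR adjusted p = 0.0409) and LDHB, the heart-type lactate dehydrogenase, fell by 0.22 (edgeR adjusted p = 0.0147). SLC16A3, the lactate exporter MCT4, fell by 0.19 (edgeR adjusted p = 0.0493). Of 21 fits that left out 1 library, TPI1 kept its call in 14, LDHB in 19 and SLC16A3 in 8. When replicate 3 was left out at 1, 10 and 100 µM together, 0 genes of these lists were called in that comparison, while calls over all genes went down to 214, against 740 with all libraries. The median log2 difference was then -0.05 over the glycolytic enzymes and -0.06 over the lactate and pyruvate list, against -0.06 and -0.06 with all libraries.

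Of 18 tested oxygen-sensing genes, 3 rose and 2 fell at 100 µM relative to 0 µM, beside 8.47% called of all tested genes. HIF1A had 301, 323 and 311 CPM at 100 µM, against 366, 379 and 358 CPM at 0 µM (log2 -0.24, SE 0.04, edgeR adjusted p = 0.00012). EPAS1, the alpha subunit also called HIF2A, had 88.8, 85.4 and 81.0 CPM at 100 µM, against 73.8, 72.6 and 74.0 CPM at 0 µM (log2 0.21, SE 0.04, edgeR adjusted p = 0.0020). VHL had 81.3, 82.4 and 77.1 CPM at 100 µM, against 66.6, 64.2 and 70.7 CPM at 0 µM (log2 0.26, SE 0.04, edgeR adjusted p = 0.00026). None of these 3 overlapped between the groups.

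SIAH2, a ubiquitin ligase that removes prolyl hydroxylases, rose by 0.21 (edgeR adjusted p = 0.0035). CUL2, the scaffold of the VHL ligase, fell by 0.14 (edgeR adjusted p = 0.0302) and lost the call without replicate 1 or 2 at 0 µM or any 1 library at 100 µM. HIF1A, EPAS1, VHL and SIAH2 were called in all 21 fits that left out 1 library, and also with replicate 3 left out at 1, 10 and 100 µM together, where CUL2 missed the threshold (edgeR adjusted p = 0.0721). At 10 µM, SIAH2 was the 1 gene of the list that rose (0.22, edgeR adjusted p = 0.0283), and it missed the threshold without replicate 1 or 2 at 0 µM, without replicate 1 or 3 at 10 µM, or without those 3 libraries together (adjusted p = 0.136). Relative to 10 µM, 5 of the 18 genes were called at 100 µM, against 4.57% of all tested genes. VHL and EGLN2 rose (edgeR adjusted p = 0.0056 and 0.0422). HIF1A, EGLN1 and CUL2 fell (edgeR adjusted p = 0.0028, 0.0091 and 0.0210). Without those 3 libraries together, 3 of the 5 were still called.

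Of 42 tested hypoxia target genes, 3 rose and 0 fell at 100 µM relative to 0 µM by edgeR, a share near that of all tested genes (8.47%, 3.66% higher and 4.8% lower), and none of the 3 was among the 10. STC2, a secreted glycoprotein of calcium and phosphate balance, had 102, 97.8 and 99.5 CPM at 100 µM, against 44.4, 43.5 and 44.7 CPM at 0 µM (log2 1.18, SE 0.05, edgeR adjusted p = 4.6e-15). DDIT4, an inhibitor of mTORC1, had 227, 214 and 232 CPM at 100 µM, against 139, 126 and 146.5 CPM at 0 µM (log2 0.71, SE 0.07, edgeR adjusted p = 3.3e-08). VEGFA, the main growth factor for blood vessels, had 129, 127 and 146 CPM at 100 µM, against 86.2, 91.9 and 94.3 CPM at 0 µM (log2 0.56, SE 0.08, edgeR adjusted p = 1.2e-05). All 3 are also known to be induced by ATF4, the transcription factor of amino acid and endoplasmic reticulum stress.

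At 10 µM STC2 rose by 0.47 (edgeR adjusted p = 3.6e-05) and DDIT4 rose by 0.30 (edgeR adjusted p = 0.0499). The DDIT4 call at 10 µM was kept in 9 of 21 fits that left out 1 library, and the STC2 call in all 21. The median log2 difference over the 42 targets was 0.19 at 10 µM and 0.08 at 100 µM, against -0.003 and 0.002 over all tested genes. Leaving out replicate 3 at 1, 10 and 100 µM together, it was 0.11 at 10 µM and -0.02 at 100 µM, and STC2, DDIT4 and VEGFA were still called at 100 µM. Relative to 10 µM, 6 of the 42 targets were called at 100 µM. The share of all tested genes was 4.57% (2.07% higher and 2.49% lower). STC2 and DDIT4 rose, and NDRG1, ANKRD37, BHLHE40 and EGLN1 fell (edgeR adjusted p = 0.0216, 0.0028, 0.0108 and 0.0091). These 4 kept the call in 18, 21, 18 and 19 of 21 fits that left out 1 library. Without the 3 libraries together, 6 targets were called, 5 of them the same.

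**Figure D4:**
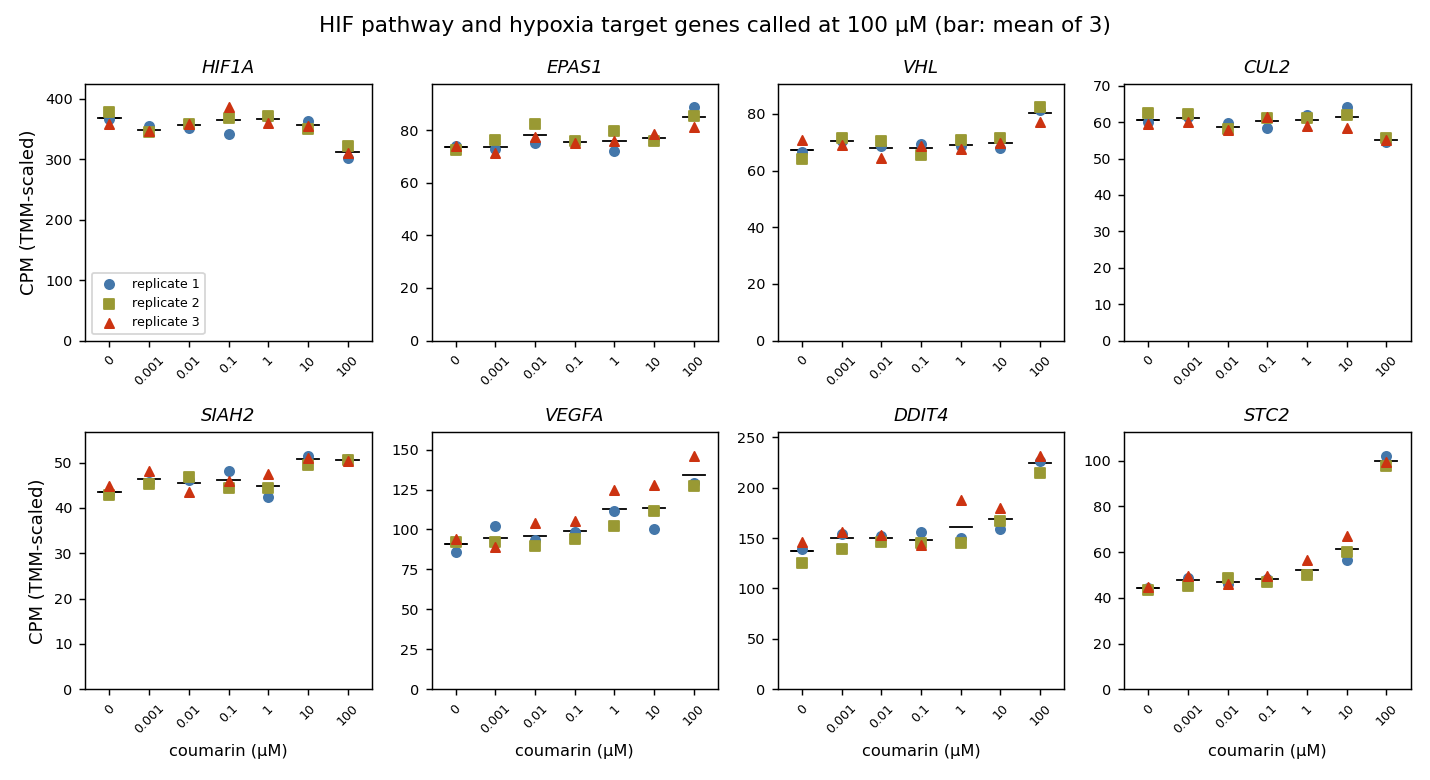
TMM-scaled CPM (linear axes from 0) by coumarin dose in µM for 5 oxygen-sensing genes and 3 hypoxia targets called at 100 µM, each point 1 library and each bar the mean of 3. HIF1A and CUL2 are lower in all 3 libraries at 100 µM than in all controls, and EPAS1, VHL, SIAH2, VEGFA, DDIT4 and STC2 are higher.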

How the data were processed

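Libraries came from poly(dT)-selected RNA and SmartScribe cDNA, per the labels. The authors deposited a table of gene counts per library, whole numbers with no normalization, and a table of their FPKM values. HISAT2, DESeq2 and GRCh38 are named in the submitters' processing notes, while the sources used here do not give the counting tool, strand setting or annotation release. Start and end matched GENCODE 29 for 58724 of 58735 genes.

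The filterByExpr function kept 16196 genes of the deposited counts, and 1 edgeR 4.0.16 quasi-likelihood model with TMM scaling covered the 7 groups and 21 libraries (R 4.3.3, 14 residual degrees of freedom). Tests set every dose against 0 µM, 100 against 10 µM, all 7 groups by an F-test and the 6 treated groups by a slope over log10 dose, and p-values were adjusted over all tested genes at 0.05. Each printed SE is the absolute log2 value divided by the square root of the test's F statistic, so it was worked back from the test. Alternatives used DESeq2 1.42.0 and limma 3.58.1 on log2 of the deposited FPKM plus 1 or 0.1. The edgeR steps were tested on simulated data. The 10 genes and the further lists (174 entries, all matched, 1 through a newer symbol) were chosen with earlier results of these data known. Named were all 10 genes, up to 5 called genes of each list at 100 µM by smallest p, genes called at other doses, family genes by level (some are not reported here) and the 3 genes most like a gene called over the 7 groups. BNIP3L, EGLN3 and PFKFB4 were named after their values were seen. Figures used matplotlib 3.10.9.

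Nothing beyond the label biological replicate says that cultures were independent, so p-values measure the spread between these samples. A level of 3 counts equals 0.0686 to 0.107 CPM, which covers counting error only. Promoter sequences are RefSeq's.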

Additional observations from a re-analysis of the deposited data

How the results depend on the processing

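The 10 genes gave the same count of calls, within 1.5 times, in 235 of 287 comparisons of a setting with the values above. The 287 include the 4 lower doses, where 0 of the 10 and at most 0.00617% of all tested genes were called. The same count at those doses says little about how stable the calls are. Without the low-count filter the counts were 3 at 1 µM, 4 at 10 µM, 3 at 100 µM, 7 over the 7 groups, 4 for the slope and 5 for 100 against 10 µM. Over all genes that setting called 41 at 1 µM, 379 at 10 µM and 1519 over the 7 groups. With the filter these were 0, 53 and 705. DESeq2 gave 1 at 10 µM, 1 at 100 µM and 3 over the 7 groups. Limma on log2(FPKM + 1), and likewise on log2(FPKM + 0.1), gave 0 over the 7 groups, 0 for the slope and 1 for 100 against 10 µM. A fit of only the compared libraries gave 3 at 10 µM and 1 at 100 µM. A gene length offset gave 1 at 10 µM and 2 over the 7 groups. A filter of at least 1 CPM gave 1 at 100 µM. Without replicate 3 at 1, 10 and 100 µM together, added after seeing the data, the slope gave 0, and a robust estimate of the spread, also added then, moved no count by over 1.5 times. The cause of these shifts was not tested. For most other settings, the replicate block included, calls over all genes are given below only as ranges.

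Leaving out 1 library at a time, the counts ran from 0 to 4 at 10 µM, 0 to 1 at 100 µM, 0 to 4 over the 7 groups, 0 to 2 for the slope and 0 to 3 for 100 against 10 µM. The log2 difference of 100 from 0 µM then ran from -0.037 to 0.15 for SLC2A1, -0.051 to 0.0095 for PFKFB3 and -0.034 to 0.049 for ENO1. Its sign reversed without replicate 3 at 100 µM for SLC2A1 and PFKFB3, also when the 3 libraries were left out together, and without replicate 2 at 0 µM for ENO1. None of these reversed values was called.

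With the replicate number as a block (replicate block), 4 genes were called at 10 µM and 4 over the 7 groups, in both cases SLC2A1, HK2, CA9 and BNIP3, and no other count of calls over the 10 genes moved by over 1.5 times. Over all tested genes, the replicate numbers showed no pairing of the samples. Of 63 same-number pairs, 0 had a correlation of deviations over 0.1 (-0.095 to 0.0751), and 8 of 21 libraries correlated best with their own number. Because these correlations run over all tested genes, they cannot decide pairing for a small set such as the 10 genes.

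Over all genes the calls ran from 7 to 379 at 10 µM (53 in the report), 705 to 1775 at 100 µM (1371), 339 to 1519 over the 7 groups (705), 412 to 819 for the slope (720) and 214 to 994 for 100 against 10 µM (740). The lowest value at 10 µM came without replicate 2 at 0 µM. Without the low-count filter the 4 lower doses had 41 to 66 calls, against 0 or 1.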
